A study of Mus musculus with 6 samples.

Results

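The Hox genes encode homeodomain transcription factors that give cells their position along the body axis. They comprise the protein-coding genes of GENCODE vM21 with the symbols Hoxa, Hoxb, Hoxc or Hoxd and a number, 39 of the 21951 protein-coding genes of the mouse genome build mm10. HoxA holds 11 of them, HoxB 10, HoxC 9 and HoxD 9. CUT&RUN located H3K4me3, trimethylation of histone H3 at lysine 4, and the protein ASH2L with an HA tag. In this assay a nuclease tethered to an antibody cuts out the DNA around the antibody's target, and the cut fragments are sequenced. All samples came from E14, a mouse embryonic stem (ES) cell line, grown in serum and LIF with doxycycline for 48 h. The HA-ASH2L E14 line, made by picking and screening single colonies, carries a piggyBac transgene for HA-ASH2L that doxycycline induces, and the labels call its genotype HA-Ash2L knock-in. Anti-HA and anti-H3K4me3 were used on this line, and anti-HA on the parental E14 line, labelled WT, with 2 replicates each and 6 samples in all. The labels give 1000000 cells for anti-HA and 100000 cells for anti-H3K4me3. The parental samples were not analysed here.

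The Hox clusters order their genes as they are used along the body, with the low paralog numbers for the hindbrain and the high ones for the trunk, limbs and tail end. In ES cells these genes are known to be mostly silent, and their chromatin is the textbook case of a bivalent state, in which H3K4me3 lies together with the Polycomb mark H3K27me3 over long stretches rich in CpG dinucleotides. ASH2L is a core subunit, with WDR5, RBBP5 and DPY30, of the MLL/SET1 enzymes that place methyl groups on H3K4, and MLL proteins are known as activators of Hox genes. Neither H3K27me3 nor expression was measured in this experiment.

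For each antibody, peaks had been called on the merged replicates, so that the 2 lists hold no values for single samples. The spread between replicates could therefore not be computed, no comparison below is a test between samples, and the intervals given cover counting error only. The H3K4me3 list held 59927 peaks from 27328071 tags after filtering, and the ASH2L list 2464 peaks from 25677963 tags. A tag is a mapped sequence, kept once per position. The fold enrichment of a peak is its summit over the background modelled from the same library within a range of 10000 bp, and its p-value score is 10 times −log10(p). A peak counted at a promoter when it overlapped by at least 1 bp the window from 1000 bp upstream to 100 bp downstream of any transcript start site of the gene. The check of the cell type by its markers was mixed. Of 12 ES cell marker genes, 5 had an H3K4me3 peak at a promoter (Klf4, Esrrb, Zfp42, Dppa4 and Tfcp2l1) and 7 had none, among them the defining markers Pou5f1, Nanog and Sox2, as well as Tdgf1, Dppa5a, Utf1 and Fgf4. Of 10 fibroblast markers, 6 had a peak, and Col3a1, Dcn, Lum and Postn had none. The marker lists thus do not separate the cell types by H3K4me3 peaks, and a promoter without a listed peak cannot be read as a promoter without the mark.

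Of the 39 Hox genes, 31 had an H3K4me3 peak at a promoter (79.5%, 95% Wilson interval 64.5% to 89.2%). Over all protein-coding genes the share was 68.4%, which lies inside this interval. With only peaks at or above the median fold enrichment of the list, 6.46, the count fell to 1 of the 39 Hox genes, against 36.4% of all genes. Without that filter the share was 8 of 11 in HoxA, 8 of 10 in HoxB, 7 of 9 in HoxC and 8 of 9 in HoxD. None of the 39 genes had an ASH2L peak at a promoter (0%, Wilson interval 0% to 8.97%), and over all protein-coding genes this share was 7.69%, again inside the interval. The 8 genes without an H3K4me3 peak were Hoxa2, Hoxa6, Hoxa11, Hoxb6, Hoxb13, Hoxc9, Hoxc12 and Hoxd12. Counted by start sites, 52 of the 83 annotated Hox start sites had a peak and 31 did not, a share of 62.7% near the 58.1% of all 93526 start sites of protein-coding genes, and several marked genes were marked at some of their start sites only.

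**Figure D1:**
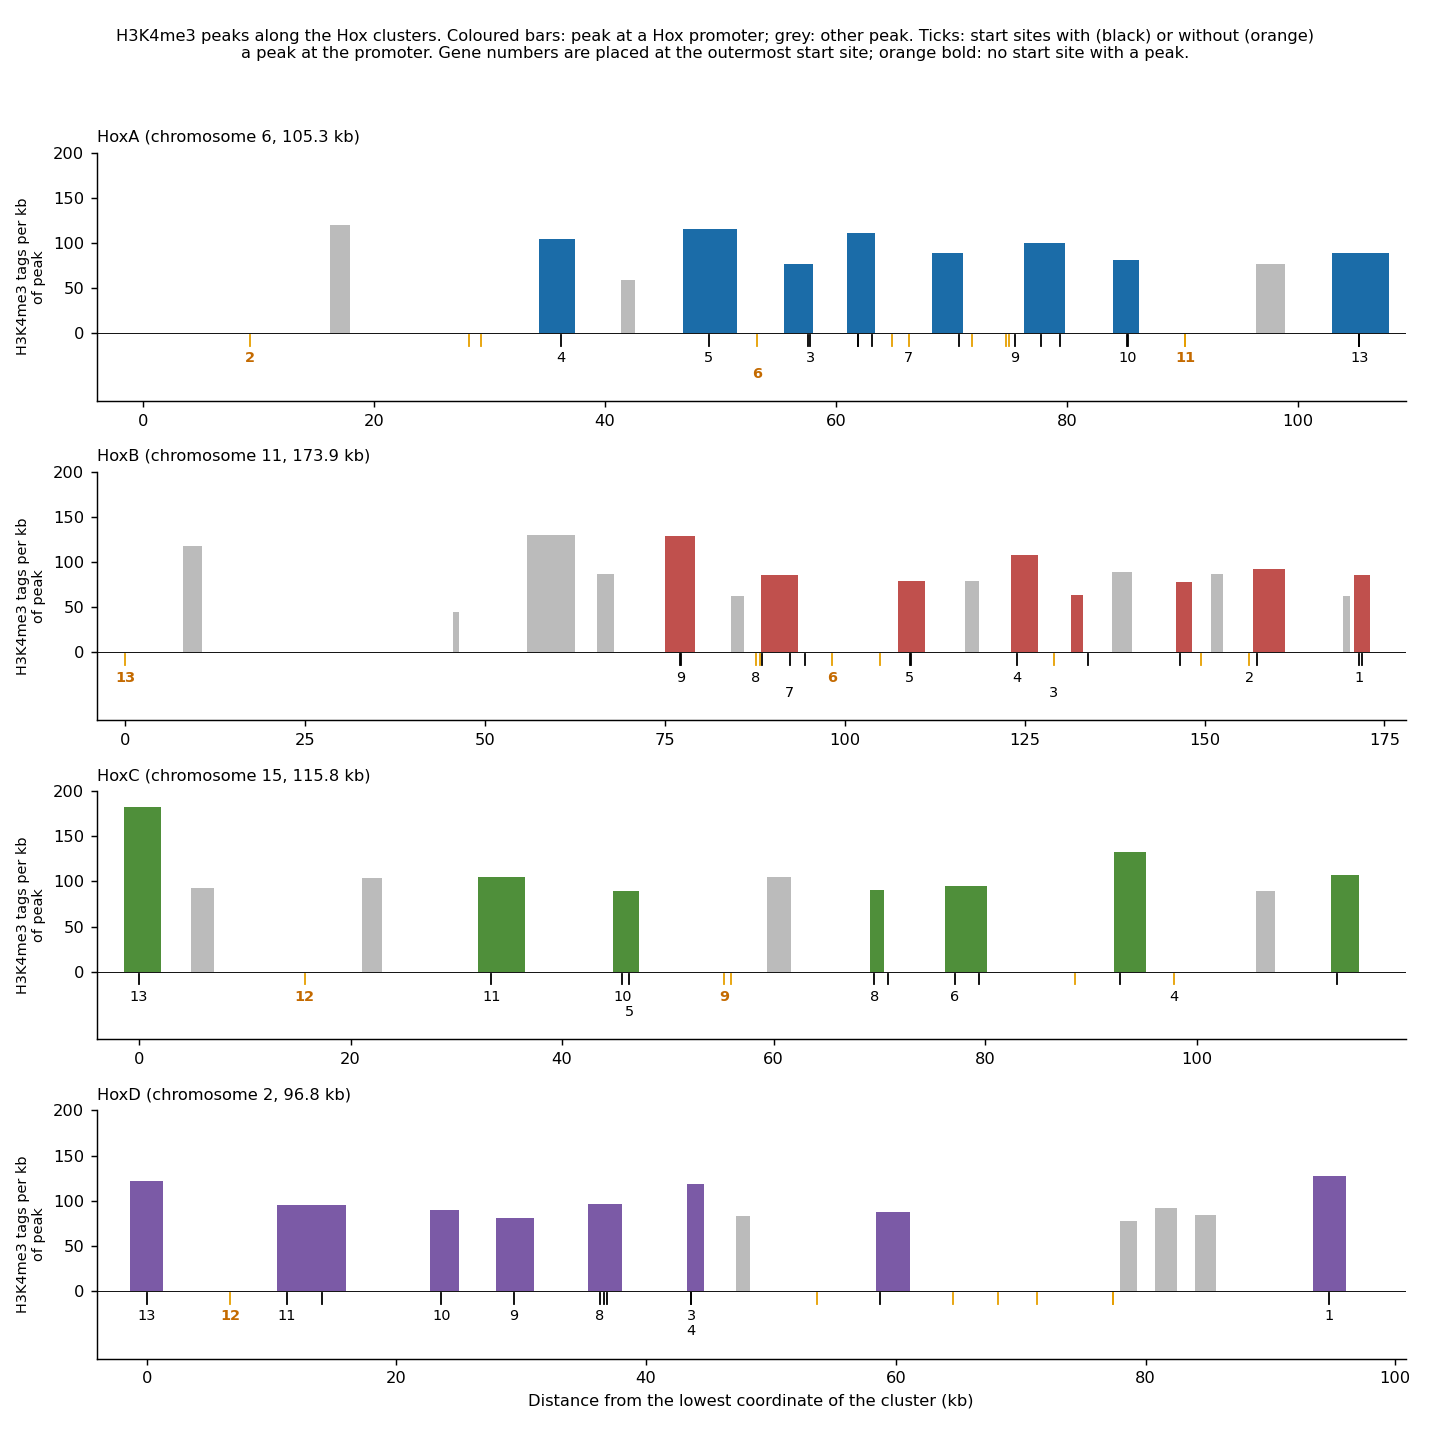
H3K4me3 peaks along the 4 Hox clusters, with the distance from the lowest coordinate of the cluster in kb on the x axis and the tags per kb of each peak on the y axis. Coloured bars are peaks at a Hox promoter, grey bars other peaks, and ticks are start sites with (black) or without (orange) a peak, with 1 gene and its peak not drawn; the 52 peaks are separated by gaps, the longest of which, 34961 bp, lies between Hoxb13 and Hoxb9.

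The upstream sequences show promoters inside and outside peaks with few and with many CpG dinucleotides, the sequence feature to which MLL proteins and other CXXC domain proteins are known to bind. RefSeq promoters (build GRCm38.p6, of which mm10 is the primary assembly) were matched for 22 of the 39 Hox genes, 24 promoters in all, and the 250 bases before each start were searched for the letters CG, which read the same on both strands. At least 1 CG is present in 92.1% of all 32851 promoters of that table, with a median of 6, against a median of 12.5 in the 24 Hox promoters. Of the Hox promoters, 17 lay in an H3K4me3 peak and held 2 to 35 CG with a median of 14, and 7 lay outside peaks and held 3 to 24 with a median of 10, so the ranges overlapped. The first group below shows genes without a peak, 5′ to 3′ with each CG in capitals. Hoxa2 (chr6:52164832-52165081, minus strand) has 6 CG, Hoxa11 (chr6:52245811-52246060, minus strand) 13 and Hoxd12 (chr2:74674763-74675012, plus strand) 10. Hoxa6 is shown for the 200 bases before its GENCODE start (chr6:52208723-52208922, minus strand), which hold 22 CG.
Hoxa2: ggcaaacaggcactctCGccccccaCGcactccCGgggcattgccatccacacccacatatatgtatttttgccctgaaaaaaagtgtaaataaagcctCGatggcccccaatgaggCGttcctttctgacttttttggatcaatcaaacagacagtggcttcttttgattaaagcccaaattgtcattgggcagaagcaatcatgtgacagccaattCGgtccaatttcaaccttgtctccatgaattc
Hoxa6: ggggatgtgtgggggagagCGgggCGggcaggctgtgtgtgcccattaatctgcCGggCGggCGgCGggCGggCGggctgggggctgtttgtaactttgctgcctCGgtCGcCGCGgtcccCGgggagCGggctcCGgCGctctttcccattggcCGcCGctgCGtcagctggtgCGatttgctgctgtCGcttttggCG
Hoxa11: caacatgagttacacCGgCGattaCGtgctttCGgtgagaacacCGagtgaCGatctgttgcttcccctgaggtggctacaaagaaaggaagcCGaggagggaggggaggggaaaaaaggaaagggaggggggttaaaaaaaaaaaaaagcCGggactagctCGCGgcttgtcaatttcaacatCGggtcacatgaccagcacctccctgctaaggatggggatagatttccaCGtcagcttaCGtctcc
Hoxd12: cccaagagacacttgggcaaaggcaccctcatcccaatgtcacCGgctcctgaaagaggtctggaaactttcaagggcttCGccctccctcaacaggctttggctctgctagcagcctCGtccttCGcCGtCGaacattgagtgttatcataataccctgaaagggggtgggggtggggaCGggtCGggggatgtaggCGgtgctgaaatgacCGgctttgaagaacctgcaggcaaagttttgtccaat

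The second group shows promoters inside peaks, Hoxd11 because its peak had the most tags at a HoxD promoter, and Hoxa13 and Hoxd13, chosen after their values were seen, because they hold the most CG. Hoxa13 (chr6:52260881-52261130, minus strand) has 35 CG and Hoxd13 (chr2:74667975-74668224, plus strand) 31. Hoxd11 has 2 start sites inside the same peak, with 2 CG before the upstream one (chr2:74679308-74679557, plus strand) and 20 before the downstream one (chr2:74682073-74682322, plus strand).
Hoxa13: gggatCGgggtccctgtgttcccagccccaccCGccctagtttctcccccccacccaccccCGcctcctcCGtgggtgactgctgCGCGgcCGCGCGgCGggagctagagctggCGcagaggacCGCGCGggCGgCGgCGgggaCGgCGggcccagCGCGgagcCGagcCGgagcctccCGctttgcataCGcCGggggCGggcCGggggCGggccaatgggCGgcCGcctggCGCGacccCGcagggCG
Hoxd13: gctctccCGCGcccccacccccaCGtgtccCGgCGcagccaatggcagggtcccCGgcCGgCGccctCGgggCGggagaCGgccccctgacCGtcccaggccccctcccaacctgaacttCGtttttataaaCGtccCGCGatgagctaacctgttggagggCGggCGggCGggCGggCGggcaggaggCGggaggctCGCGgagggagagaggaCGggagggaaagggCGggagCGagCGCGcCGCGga
Hoxd11 upstream start: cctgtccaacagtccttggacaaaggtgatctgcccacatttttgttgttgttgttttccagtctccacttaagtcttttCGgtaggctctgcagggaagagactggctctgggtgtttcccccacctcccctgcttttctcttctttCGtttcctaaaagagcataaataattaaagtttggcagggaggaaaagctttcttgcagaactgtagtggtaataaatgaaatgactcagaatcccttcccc
Hoxd11 downstream start: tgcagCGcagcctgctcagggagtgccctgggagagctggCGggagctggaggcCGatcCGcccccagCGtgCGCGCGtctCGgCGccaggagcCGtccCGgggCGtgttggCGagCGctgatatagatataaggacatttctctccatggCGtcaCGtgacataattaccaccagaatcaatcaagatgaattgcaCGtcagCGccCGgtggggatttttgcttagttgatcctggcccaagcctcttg
The promoter of Hoxa6, which is at or above 89.3% of the table's promoters in its number of CG over 250 bases, had no peak, and the upstream promoter of Hoxd11, at 29.0%, lay in one, whose summit was 2804 bp downstream of that start and 38 bp downstream of the other. A CG count is a description of these windows and does not show binding.

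The anterior genes, of paralog groups 1 to 4, specify hindbrain segments, neck and upper thorax. Of these 12 genes, 11 had an H3K4me3 peak at a promoter (Wilson interval 64.6% to 98.5%, which holds the 68.4% of all genes). Hoxd1 had the highest fold enrichment of all Hox promoter peaks, 7.52, with 336 tags and a score of 659.36. At Hoxb1, which patterns a hindbrain segment, the peak had 190 tags. In group 2, Hoxb2 had a peak of 401 tags whereas Hoxa2, which patterns the second branchial arch, had none. The nearest peak to the start site of Hoxa2 was 3399 bp away.

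The genes of paralog group 3, which act in the development of the thymus, parathyroid and neck, had top peaks of 163 to 192 tags. At Hoxa3 the top promoter peak (chr6:52211091-52213590) had 192 tags (166 to 221), a fold enrichment of 4.01 and a width of 2500 bp, the fewest tags of a marked gene in HoxA. At Hoxb3 the top peak (chr11:96340357-96342614) had 175 tags (150 to 203) and a fold enrichment of 4.61, the fewest in HoxB. At Hoxd3 the peak (chr2:74711550-74712930) had 163 tags (139 to 190), a fold enrichment of 5.64 and a width of 1381 bp, the fewest in HoxD. The 3 intervals overlap each other, and that of Hoxb3 overlaps that of Hoxb1 (164 to 219). Per kb these peaks had 76.8 tags at Hoxa3, 77.5 at Hoxb3 and 118 at Hoxd3, the last above the median of the Hox promoter peaks, 94.9, so that a low total was not always a low density. The peaks lay at only some of the annotated start sites, 2 of 4 for Hoxa3, 2 of 4 for Hoxb3 and 1 of 6 for Hoxd3, and the peak of Hoxd3 also covers a start site of Hoxd4, so that the tags cannot be assigned to either gene. In group 4, which patterns the upper neck vertebrae, all 4 genes had a peak, although Hoxd4 had none at its RefSeq start site. The top peak had 411 tags at Hoxb4, 317 at Hoxa4, 275 at Hoxc4 and 239 at Hoxd4. The peak of Hoxb4 was the widest of these, and per kb the values were close, at 108 for Hoxb4, 105 for Hoxa4, 107 for Hoxc4 and 87.8 for Hoxd4. Hoxc4 had the second highest fold enrichment of the Hox promoter peaks, 6.41, and a score of 416.54.

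The central genes, of paralog groups 5 to 8, pattern the thorax, its motor neurons and organs such as the lung. Of these 11 genes, 9 had an H3K4me3 peak (interval 52.3% to 94.9%, which also holds 68.4%). Hoxa5, which is needed for lung development, had a peak of 539 tags, and Hoxb5 and Hoxc5 had peaks of 301 and 398 tags. In group 6, Hoxc6 had a peak of 379 tags and neither Hoxa6 nor Hoxb6 had one. The end of the Hoxa5 peak was 1738 bp from the start site of Hoxa6, and the Hoxb5 peak was 2483 bp from a start site of Hoxb6. The Hoxc5 count has a limit, as its second peak, at the start of a long transcript, is that of Hoxc10. In group 7, Hoxa7 had a peak of 263 tags, and Hoxb7 and Hoxb8 shared a single peak of 5077 bp with 436 tags. Hoxd8 had a peak of 262 tags with 86.0 CpG per kb, the most of all cluster peaks. Hoxc8, which acts in the thoracic skeleton and brachial motor neurons, had the fewest tags of all marked Hox genes, 120 (99.5 to 143) in a peak of 1328 bp at chr15:102990231-102991558 with a fold enrichment of 5.08.

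The posterior genes, of paralog groups 9 to 13, pattern the lumbar and tail regions, the limbs and the urogenital tract, and 11 of these 16 genes had an H3K4me3 peak. That share, 68.8% (interval 44.4% to 85.8%), was close to the 68.4% of all genes, and the intervals of the 3 groups of genes overlap, so that no order between them can be read from the counts. Hoxb9 had the most tags at a HoxB promoter, 534 (490 to 581) at chr11:96269272-96273421 with a width of 4150 bp, a fold enrichment of 5.17 and a score of 482.86. Hoxc13, known for its role in hair and nails, had the most at a HoxC promoter, 624 (576 to 675) at chr15:102919719-102923140. That peak was 3422 bp wide and, with 182 tags per kb and a score of 769.83, had the most tags per kb and the highest score of all Hox promoter peaks, at a fold enrichment of 4.70. Hoxd11, which acts in the forearm and kidney, had the most at a HoxD promoter, 524 (480 to 571) in a peak of 5505 bp at chr2:74678770-74684274 with a fold enrichment of 3.47, the lowest of the Hox promoter peaks. The other posterior genes had 213 to 466 tags. Hoxa9, which acts in blood stem cells, and Hoxa10, which acts in the uterus, shared their top peak of 358 tags, and each also had a weaker one of its own, with 238 tags at Hoxa9 and 178 at Hoxa10. At its RefSeq start site Hoxa9 had none. Hoxd9 had 251 tags and Hoxd10 213, in neighbouring peaks of 3105 and 2384 bp, and Hoxc10 had 224 and Hoxc11 466. The genes for the tips of the limbs, Hoxa13 and Hoxd13, had 437 and 316 tags, with summits 32 and 44 bp downstream of the start sites. Group 12, which has only 2 genes, was the only paralog group in which no member had a peak in this list.

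The posterior genes without an H3K4me3 peak lay at different distances from their neighbours' peaks. From the start site of Hoxc12, in the longest HoxC gap, to the nearest peak was 5473 bp. From Hoxd12 it was 3757 bp, to the peak of Hoxd11. Hoxa11, the paralog of Hoxd11 in the forearm and also a uterine factor, lay 4010 bp from the nearest peak, and Hoxc9, a thoracic motor neuron determinant, 3441 bp from a peak inside its own gene body. Hoxb13, a prostate and tail regulator that lies apart from the other HoxB genes, had its nearest peak 2168 bp away outside the cluster, with 299 tags. Of 13 paralog groups, 7 had a peak at every member, 1 at none, and 5 were split. When the 29 distinct top promoter peaks were ordered by tags, the Poisson intervals of all 28 neighbouring pairs overlapped. Ordering places like values side by side, so this overlap does not show a gradual series. Peaks further apart did not all overlap, with 99.5 to 143 at Hoxc8 and 576 to 675 at Hoxc13.

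**Figure D2:**
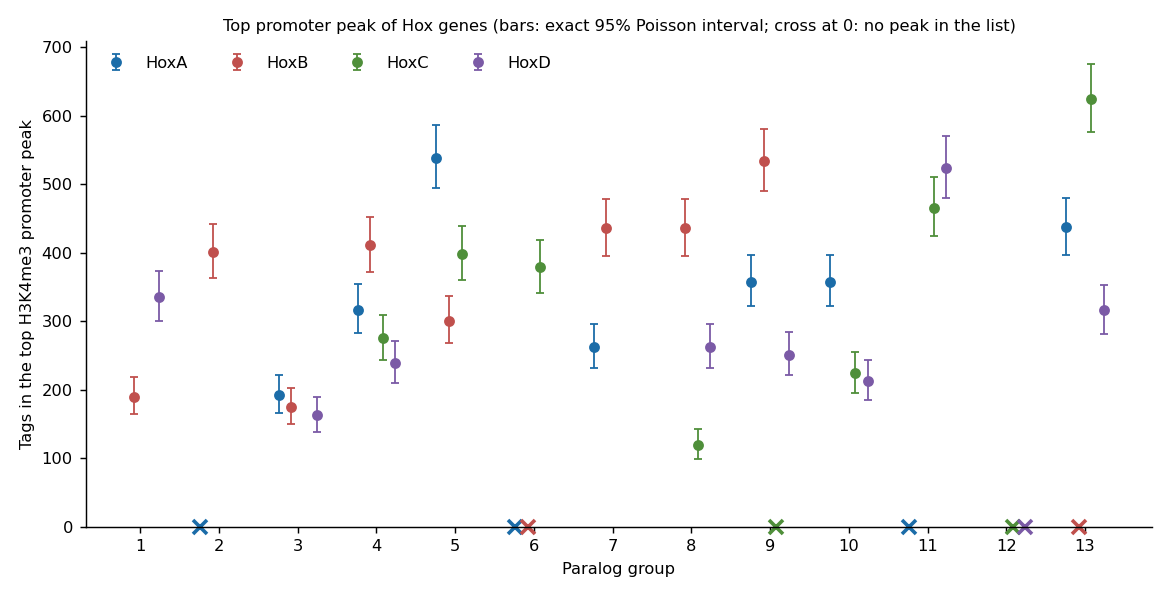
Tags in the top H3K4me3 promoter peak of each Hox gene by paralog group, with exact 95% Poisson intervals, coloured by cluster; a cross at 0 is a gene with no peak in the list. Hoxc8 has the fewest tags, 120, Hoxc13 has 624, and paralog group 12, of 2 genes, has crosses only (1 gene is not drawn).

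The H3K4me3 peaks at Hox promoters had a median width near that of other genes, but fewer tags per length and a lower fold enrichment. The 32 distinct peaks had a median width of 2866.5 bp, above 57.0% of the 16735 distinct peaks at promoters of all protein-coding genes, or equal to them, where the median was 2647 bp. The lower quartiles were 2471 and 1879 bp, so that fewer of the Hox peaks were narrow. Their median was 308.5 tags against 393, and 94.9 tags per kb against 143. All but 1 of the 32 peaks were below the median of all promoter peaks in tags per kb, the exception being the peak of Hoxc13. The median fold enrichment was 4.73 against 6.41, with 30 of 32 peaks below the latter, and the exceptions were the peaks of Hoxd1 and Hoxc4, the latter at 6.41 exactly. The median score was 239.18 against 540.17. These comparisons are of peaks in 1 pair of merged libraries and were not tested.

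Across the promoter peaks of all genes, wider peaks tended to have lower fold enrichments, and the Spearman correlation of width and fold enrichment was −0.58 (16734 peaks of 1 list, which share depth and a background modelled over 10000 bp of the same library, whose part was not tested). Within classes of width, the order of the cluster peaks and the list was mixed. Among peaks from 1000 to under 2000 bp, the 13 cluster peaks had a median fold enrichment of 5.08 against 7.22 in the list, and from 2000 to under 4000 bp the 27 had 4.57 against 6.17. From 4000 to under 6000 bp the 9 cluster peaks had 4.81 against 4.55, so that the fold enrichment was no lower there. The single cluster peak of 6000 bp or more had 4.08 against 3.73, and the 2 under 1000 bp had 5.48 against 6.46. The tags per kb were 89.3 against 129 in the class from 2000 bp and 95.2 against 148 in the class from 4000 bp, but 86.8 against 73.9 in the class from 1000 bp and 53.6 against 48.5 under it. The peak of 6000 bp or more had 130.6 against 148.7. The classes set all cluster peaks beside all listed peaks, whether at a promoter or not, and only 3 of the 13 in the class from 1000 bp lay at a Hox promoter.

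Genes of other homeobox families were set beside the Hox genes, without a test. The list took 55 genes of families such as Dlx, Lhx, Irx, Msx, Otx and Nkx, and 47 of them had an H3K4me3 peak at a promoter (85.5%). Their 54 peaks had a median width of 3743.5 bp, a median fold enrichment of 4.15 and 117 tags per kb. In fold enrichment they were as low as the Hox peaks or lower, and in tags per kb they lay between the Hox peaks and all promoter peaks. Olfactory receptor genes, 16 of 1093 of which had a peak (1.46%), are a family silent in ES cells, where a peak was rarely listed.

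**Figure D3:**
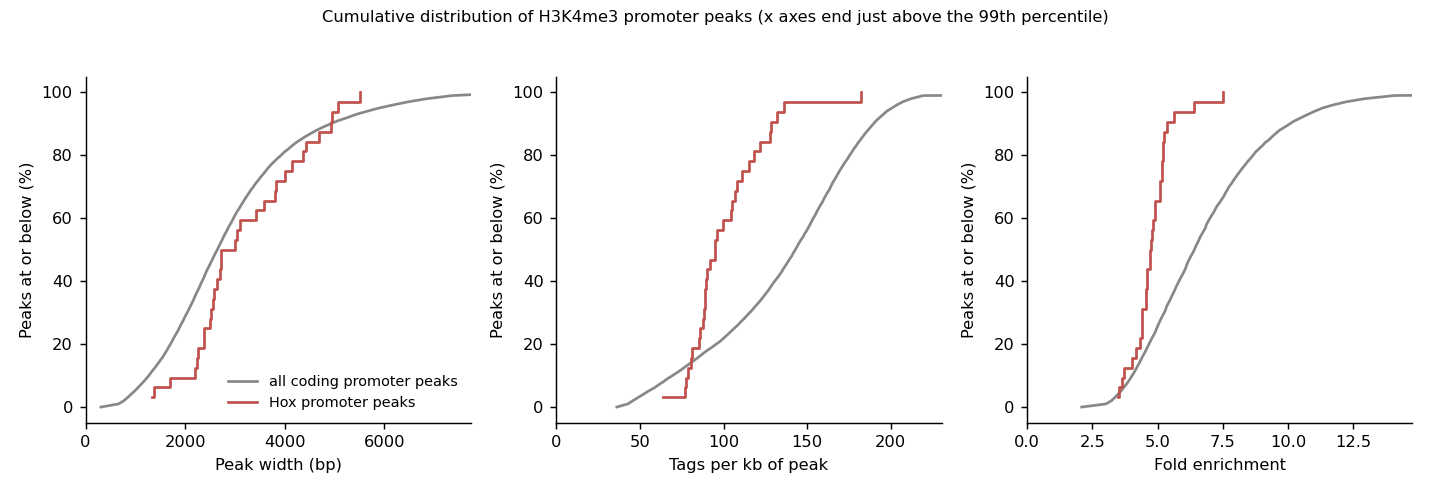
Cumulative share of H3K4me3 promoter peaks (y axis, %) by width in bp, tags per kb and fold enrichment, for 16735 peaks of all protein-coding genes (grey) and 32 peaks at Hox promoters (red). For width the medians are close (2866.5 and 2647 bp) and the red curve lies to the right among the narrower peaks (lower quartiles 2471 and 1879 bp), and the red curves lie to the left for tags per kb (94.9 and 143) and fold enrichment (4.73 and 6.41).

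The position of the H3K4me3 summit was taken relative to the nearest start site, of which the Hox genes have 2.13 each and all protein-coding genes 4.26, and fewer annotated sites can leave the nearest one further off. The part of the site number in the values below was not tested. For the top promoter peak of each gene, the summit lay downstream of the nearest start site in 23 of 31 Hox genes (74.2%) against 44.3% of 15016 genes, with a median position of 194 bp against −11 bp. It lay within 500 bp of a start site in 22 of 31 Hox genes (71.0%) against 85.9% of all. The most distant cases were Hoxb8, where the shared peak has its summit 4308 bp downstream, and Hoxa9, where the peak of Hoxa10 reaches a distal start site and has its summit at −3467 bp from it.

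As whole regions, the clusters were covered by H3K4me3 peaks over 28.1% of their 491815 bp, whereas peaks covered 4.23% of the genome. The 52 peaks summed to 14427 tags, 0.115% of the tags in all H3K4me3 peaks. Over the full span of its Hox genes, HoxA (chr6:52155590-52260880, 105291 bp) had the highest coverage, 32.2% in 12 peaks with 3670 tags. HoxB (chr11:96194316-96368256, 173941 bp) had 28.1% in 17 peaks with 4682 tags. HoxC (chr15:102921103-103036852, 115750 bp) had the lowest coverage, 24.1% in 11 peaks with 3271 tags. HoxD (chr2:74668310-74765142, 96833 bp) had 28.5% in 12 peaks with 2804 tags. The genome was cut into tiles of each cluster's length, whose median coverage was 1.27% to 1.55%. A coverage at or above that of the cluster was found in 0.262% of the tiles for HoxA, 0.400% for HoxB, 1.57% for HoxC and 0.750% for HoxD. Each cluster is thus matched by 61 to 360 tiles of its size. The tiles were matched by length only, and in CpG dinucleotides per kb the clusters were rarer still. A CpG density at or above that of the cluster was found in 0.00397% of the tiles for HoxA and 0.0590% for HoxB. For HoxC it was 0.1004% and for HoxD 0.00731%. Whether the coverage is high for tiles of like CpG density was not tested. The coverage of the clusters rested on peaks of low fold enrichment. With only peaks at or above the median of the list it was 0% in HoxA and HoxC, 1.63% in HoxB and 4.50% in HoxD. The genome and tile coverages above are unfiltered and are no comparison for these.

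**Figure D4:**
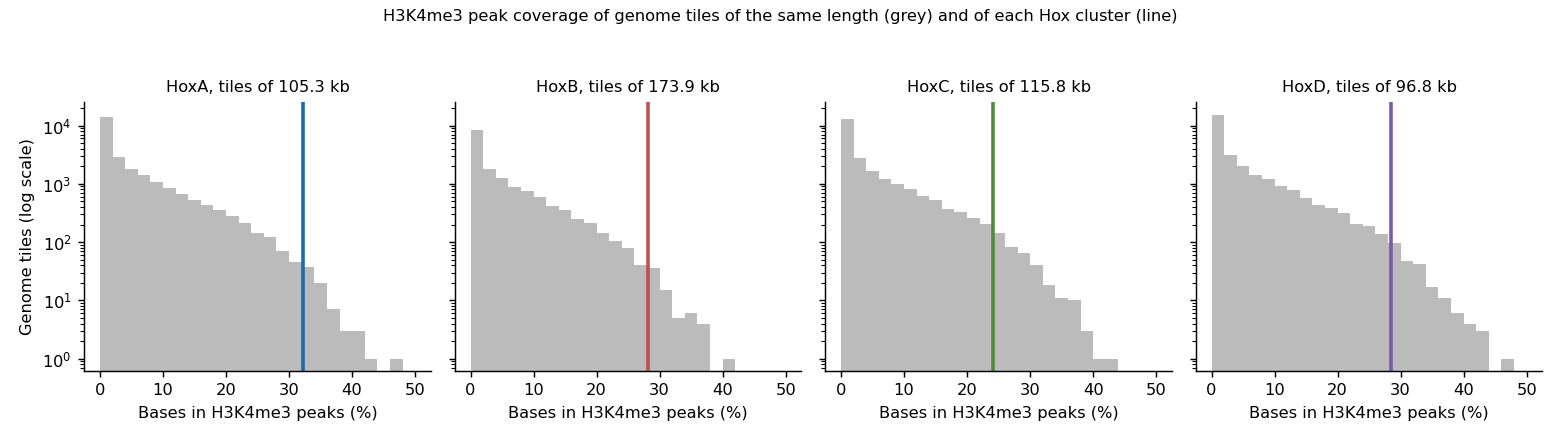
Number of genome tiles (log scale) by the share of their bases in H3K4me3 peaks (%), for tiles of the length of each Hox cluster, with the value of the cluster as a line. The clusters lie between 24.1% and 32.2%, in the right tail of tiles whose medians are 1.27% to 1.55%.

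The H3K4me3 in each cluster was listed as separate peaks. No promoter peak of any protein-coding gene was wider than 8609 bp, so that the list could not be read for domains of a cluster's length. The 53 gaps between peaks, or between a peak and the end of a cluster, had a median of 5170 bp and ran from 453 to 34961 bp, and 11 were over 10000 bp. All but 1 of these 11 held a Hox start site. The exception was the longest, at chr11:96204946-96239906, in the region between Hoxb13 and Hoxb9. When HoxB was taken from Hoxb9 to Hoxb1, a choice made after seeing the data, its longest gap was 13888 bp and its coverage 35.5%. This coverage is above the 32.2% of HoxA. The longest gap of HoxA (16396 bp, chr6:52173516-52189911) held 2 internal start sites of Hoxa3, that of HoxD (16825 bp, chr2:74729468-74746292) held internal start sites of Hoxd3, and that of HoxC (13991 bp, chr15:102928239-102942229) held Hoxc12.

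Of the 52 peaks, 32 lay at a Hox promoter and 20 did not. The peaks away from Hox promoters were narrower, with a median of 1792.5 bp against 2866.5 bp, and had fewer tags, 162 against 308.5, at a like fold enrichment of 4.36 against 4.73. Of these 20, 6 lay at the promoter of another annotated gene, 7 in the body of a Hox gene away from any promoter, and 7 between Hox genes. The peak with the most tags of any cluster was one of the 20. It lay upstream of Hoxb9 at the promoter of the noncoding gene Gm53, at chr11:96250177-96256746, with 858 tags over 6570 bp and a fold enrichment of 4.08. The highest fold enrichment in HoxB, 7.04, lay at no annotated promoter, in a peak of 160 tags between Hoxb5 and Hoxb4 at chr11:96310978-96313000.

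Noncoding genes share many of these peaks. Within the clusters or 5000 bp of them, 21 noncoding genes other than miRNAs are annotated, and 13 had an H3K4me3 peak at a promoter, against 20.2% of the 22952 genes of the same annotated types. Without a pseudogene and a locus of provisional type, it was 13 of 19 against 33.7% of 9793. This was not tested, and a peak shared with a Hox promoter counts for both genes. Hottip, transcribed divergently from Hoxa13, shared the Hoxa13 peak of 437 tags, and Haglr, next to Hoxd1, had 3 peaks. Hotair, the HoxC noncoding RNA known from work on HoxD silencing, had none, with the nearest peak 3694 bp from its start. Of 7 miRNA genes, 1 overlapped a peak, Mir615 inside Hoxc5, and no share over all miRNA genes was taken for comparison. Mir10a lay 242 bp from the peak of Hoxb4 and Mir10b 676 bp from the peak of Hoxd4, the genes that the miR-10 family accompanies. The miR-196 genes, which lie near the group 9 genes and are known to target Hox transcripts, lay 1641 to 4959 bp from the nearest peak.

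CpG dinucleotides were denser in the peaks than in the gaps of every cluster. Peaks held 48.7 CpG per kb in HoxA, 37.9 in HoxB, 40.4 in HoxC and 56.0 in HoxD, and the gaps 20.9, 14.3, 15.4 and 16.9. The single peaks ran from 7.09 to 86.0 per kb and the single gaps from 2.90 to 32.0, so that the ranges overlapped. The whole clusters held 29.9 CpG per kb in HoxA, 20.9 in HoxB, 21.5 in HoxC and 28.0 in HoxD. The median tile of the same length held 7.38 to 7.42 per kb. Within the clusters, more CpG went only weakly with more tags per kb of peak (Spearman's rho 0.29 across 52 peaks of 1 list, which share depth), and it did not go with fold enrichment (rho −0.04). The peaks at Hox promoters had a median of 46.1 CpG per kb against 31.5 for promoter peaks of all protein-coding genes, so that they were richer in CpG and poorer in tags per kb. Among all promoter peaks the correlation of CpG and tags per kb was 0.40.

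**Figure D5:**
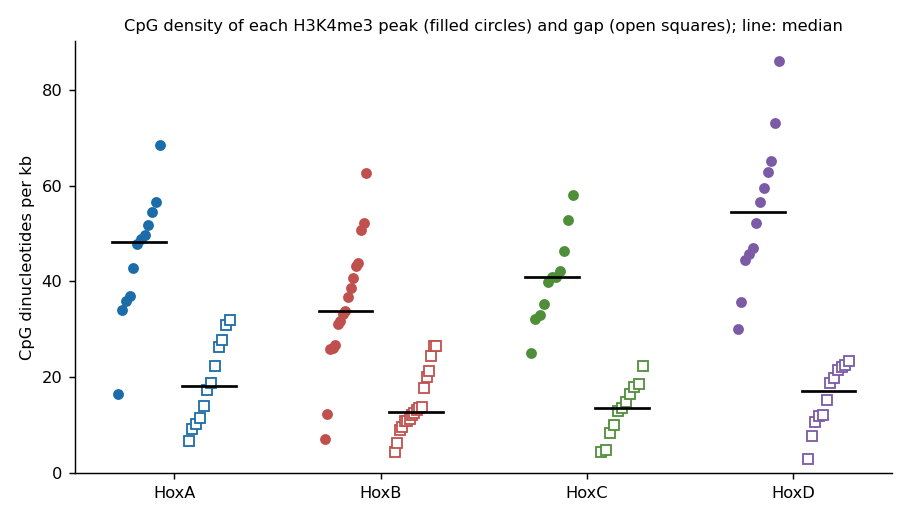
CpG dinucleotides per kb in each H3K4me3 peak (filled circles) and each gap (open squares) of the 4 Hox clusters, with a line at the median over peaks or gaps. Peaks lie mostly higher than gaps, and the values overlap between 7.09 (lowest peak) and 32.0 (highest gap).

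No ASH2L peak lay in any of the 4 clusters. The nearest was 49.4 kb from HoxC, 69.4 kb from HoxB, 89.2 kb from HoxD and 1699 kb from HoxA. With 2464 ASH2L peaks in the genome, a tile of such a length usually has none, and 86.6% to 92.0% of the tiles held none. The ASH2L list had only 0.398% of its tags in peaks against 45.7% for H3K4me3, and its weakest peak had 17 tags. ASH2L was not detected as a peak over the Hox clusters at this depth and threshold, which does not show that it was absent.

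The genes flanking the clusters are a local comparison. Skap2 and Evx1 flank HoxA, with promoter peaks of 722 and 581 tags and fold enrichments of 5.56 and 3.72. Skap1 beyond HoxB had 174 tags, Calcoco1 and Smug1 on either side of HoxC 451 and 335, and Mtx2 beyond HoxD 338. Their fold enrichments were 9.32, 10.22, 9.02 and 9.37, each above every peak of the clusters. These peaks were 1631 to 2730 bp wide, and narrower promoter peaks tended to have higher fold enrichments. In tags they lay within the range of the cluster peaks, 36 to 858. Ttll6 beside HoxB and Evx2 beside HoxD had no H3K4me3 peak at a promoter. Evx1 and Evx2 are homeobox genes that arose with the Hox clusters. The fold enrichment of Evx1 lay within the range of HoxA. Those of the other flanking genes with a peak lay above the range of the cluster they flank.

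Genes that act with or upstream of Hox genes were counted by the same rule. Of 9 TALE homeodomain cofactors (Pbx, Meis and Pknox genes), which bind DNA together with Hox proteins, 8 had an H3K4me3 peak and Pbx2 had none. Of 8 ParaHox and Evx genes, the closest relatives of Hox genes, 7 had one, and Evx2 had none. Gsx2 and Cdx1 in this list also had an ASH2L peak at a promoter. Of 16 genes for retinoic acid, the signal that opens the anterior Hox genes during differentiation, 11 had a peak, and the receptor genes Rara and Rarg and the enzyme genes Aldh1a1 and Cyp26b1 were among those without one. Of 17 genes for MLL subunits, the H3K27 demethylases and Polycomb proteins, which regulate Hox chromatin, 15 had an H3K4me3 peak and Kdm6b and Ring1 had none. In that list 6 genes had an ASH2L peak, namely Wdr5, Dpy30, Ezh2, Suz12, Cbx7 and Rnf2. These lists are small, and the counts were not tested against the background of 68.4% and 7.69%.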

How the data were processed

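The tag counts deposited for each peak are whole numbers of tags in the merged replicate libraries, not normalized. The fold enrichment, a ratio also deposited by the authors, relates the summit of a peak to a background taken from the library itself, since the headers name MACS 1.4.3 with no control library, a p-value cutoff of 1e-05 and 1 tag kept per position. The p-value score that the authors' caller gave is 10 times −log10(p), and 50 at the cutoff. Reads had been mapped to mm10 with Bowtie2 per the labels. With no control, regions that gather tags unspecifically stay in the lists.

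Totals were 39669806 tags (27328071 after filtering) for H3K4me3 and 26545897 (25677963) for ASH2L. The tag sizes in the headers, 142 and 151 bp, are above the fragment limit in the methods of the study, and it is not settled which fragments were counted.

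Peaks were intersected with GENCODE vM21 promoters, clusters ran from the lowest to the highest coordinate of their Hox genes, and tiles with over 50% unknown bases were left out. Promoter sequences came from RefSeq (GRCm38.p6). Values were given in full for genes without an H3K4me3 peak and for those with the most and the fewest tags per cluster, with flanking genes and list members that lack a peak. Some items that this rule selects are not reported here. Members and lists were chosen with earlier results of these data known. The intersection was tested on simulated data. Python 3.11.15, numpy 2.4.6, scipy 1.17.1, pysam 0.24.0, matplotlib 3.10.9 and samtools 1.23.1 were used.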

Additional observations from a re-analysis of the deposited data

How the results depend on the processing

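For 19 results, 72 alternative values were computed, of which 57 stayed within 1.5 times the reported value and 15 did not. The number of Hox genes with an H3K4me3 peak at a promoter was 34 with windows of 2500 bp on both sides (71.9% of all genes), 31 with the start site base only (67.3%), 30 with protein-coding transcripts (67.0%), 29 with RefSeq start sites, where Hoxa9 and Hoxd4 had none (67.4%), 30 with scores of 100 or more (66.0%) and 27 with at least 50% of the window covered (64.9%). With only peaks at or above the median fold enrichment of the list, 6.46, 1 Hox gene was left (36.4% of all genes). Under that filter, HoxA and HoxC had 0 peaks and a coverage of 0%, with gaps of 105291 and 115750 bp, HoxB had 2 peaks, 1.63% and a longest gap of 70261 bp, and HoxD had 2 peaks, 4.50% and 83922 bp, since 48 of the 52 cluster peaks are under that median. With scores of 100 or more, the longest HoxA gap was 28479 bp. With HoxB from Hoxb9 to Hoxb1, chosen after seeing the data, its longest gap was 13888 bp. For ASH2L, only wider windows, RefSeq start sites and clusters extended by 10000 bp could raise the counts, which were 0 there too. Under the other settings the ASH2L counts could only stay at 0, and these values are among the 57. No paired analysis was possible because the lists merge the replicates, which also barred leaving out a replicate. A missing peak is no measure of the mark, since the signal itself was not analysed here.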
